A study of Mus musculus with 12 samples.

Results

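The interaction between Pml genotype and diet is the difference between 2 diet effects: high-fat minus low-fat in mice lacking Pml, minus the same difference in mice that carry it. It was computed for each of the 28898 probe sets that the platform annotation gives to a single gene, of 45141 probe sets in all. A positive value means that the high-fat diet moved the signal up more, or down less, in knockout than in wild-type livers. These probe sets stand for 17097 of the 17413 genes that the annotation names. The values are log2 signals of liver RNA on 12 oligonucleotide arrays, so that an interaction of 1 is a doubling of the ratio between groups.

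The 4 groups were male Pml knockout mice on a high-fat diet with 60% of calories from fat, knockout mice on a control diet with 10%, and wild-type mice on either diet. Feeding lasted 20 weeks, every mouse was fasted for 8 h before the liver was taken, and 3 liver extracts were measured of the 8 mice in each group. The strain, the age, the design of the knockout allele and the cells in which it acts are not given in the sources used here. The labels do not say outright that each extract came from its own mouse, so p-values measure the spread between these extracts, and the 3 arrays a group limit the precision.

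PML is the scaffold of nuclear bodies, protein assemblies in the nucleus that take part in gene control, in p53 signalling and in the response to interferon, which also induces PML itself. Interferons act through JAK kinases and STAT transcription factors on genes that carry interferon response elements, and their products include antiviral proteins, GTPases that attack intracellular pathogens, and chemokines that attract T cells. PPAR-alpha is a nuclear receptor that, during fasting and fat feeding, switches on the genes with which the liver burns fatty acids. The design asks whether the effect of a fat-rich diet on liver gene expression depends on Pml, and the series title names PPAR signalling and fatty acid oxidation as its subject.

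The genotype labels were checked on Pml itself. The brighter of its probe sets had 3.43, 3.04 and 3.82 in knockout high-fat livers, 3.70, 3.59 and 3.59 in knockout low-fat livers, 4.97, 5.35 and 5.38 in wild-type high-fat livers and 5.40, 4.92 and 5.07 in wild-type low-fat livers. Every knockout liver lay below every wild-type liver. The sources used here do not say whether the probe sets lie in the removed part of the gene. The brighter Pml probe set had an interaction of -0.30 (SE 0.262, limma adjusted p = 0.916), so no dependence of its signal on diet by genotype was called. The dimmer one had 0.18. Array medians were between 3.94 and 3.996, and the arrays correlated with r of 0.986 to 0.995 over all probe sets. Hepatocyte markers averaged 12.59 to 12.79 on every array. Markers of macrophages and Kupffer cells, the resident liver macrophages, averaged 7.10, 6.68 and 5.72 in knockout high-fat livers and 6.81, 5.05 and 6.47 in knockout low-fat livers. They lay between 6.19 and 6.62 in the 6 wild-type livers. The second knockout low-fat and the third knockout high-fat extract lay below all wild-type livers. The first extract of either knockout group and the second knockout high-fat extract lay above all of them. Results are also given without the 2 lowest extracts, a choice made after seeing the data, and for the interferon lists without the first knockout high-fat extract, the highest. As a measure of RNA integrity, the 3' probe set of actin exceeded the 5' one on the log2 scale by 1.42 to 1.44 in knockout high-fat, 1.48 to 1.55 in knockout low-fat, 1.51 to 1.64 in wild-type high-fat and 1.26 to 1.85 in wild-type low-fat livers.

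No probe set passed for the interaction. At an adjusted p under 0.05 (limma, Benjamini-Hochberg over all 28898), 0 probe sets were called (0%), the smallest adjusted p being 0.772, and 0 were called at 0.10. An unadjusted p under 0.05 was found for 1625 probe sets (5.62%), 808 positive and 817 negative, where evenly spread p-values give 1444.9. In the same fit the diet effect was called for 228 probe sets in knockout livers (0.789%), 148 up and 80 down, and for 25 in wild-type livers (0.0865%), 9 up and 16 down. These unequal counts are no test of a difference between genotypes; the interaction is that test. An interaction is measured with less precision than either diet effect: the median SE was 0.174, against 0.123 for a diet effect. A call of 1 probe set alone would have needed a p of 1.73e-06. Values beyond 1 in size were found for 95 probe sets, 64 positive and 31 negative, and beyond 2 for 9. All genes and lists below are therefore described by their values, and counts at an unadjusted p are given as a description only.

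**Figure D1:**
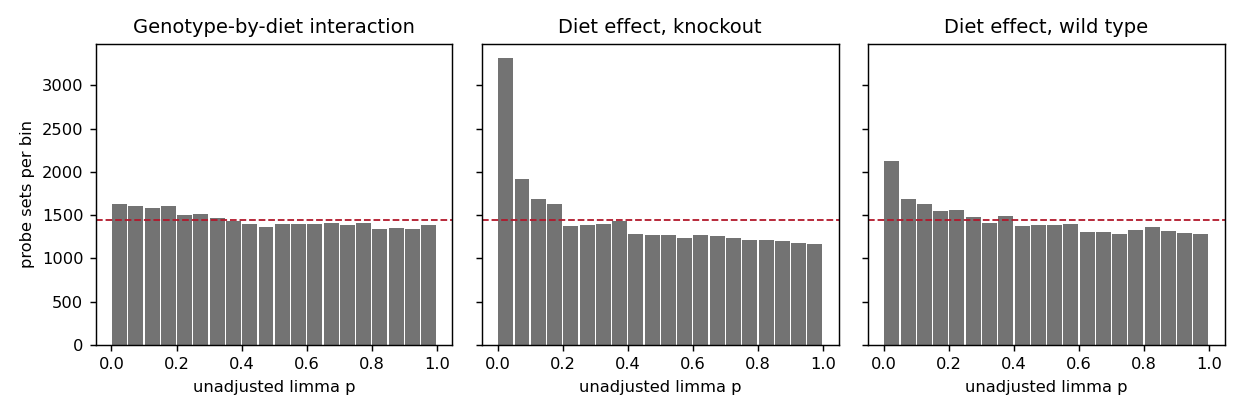
Number of probe sets (y axis) by unadjusted limma p in 20 bins (x axis) for the interaction, for the diet effect in knockout livers and for the diet effect in wild-type livers. The dashed line is the height of evenly spread p-values, 1444.9 probe sets a bin; the lowest bin holds 1625 probe sets for the interaction, 3312 for diet in knockout and 2125 for diet in wild-type livers.

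The probe set with the smallest p was that of Ifit3, an interferon-induced antiviral protein that binds viral RNA complexes with other IFIT proteins. Its promoter is printed first among 3 shown here because these genes lie at the top of the interferon lists and carry interferon-stimulated response elements. Sequences are the 250 bases before the annotated start, 5' to 3' on the gene's strand, from RefSeq on GRCm38.p6. Ifit3 is at chr19:34583279-34583528, Igtp at chr11:58199306-58199555 and Gbp7 at chr3:142530086-142530335, each on the plus strand. Capitals mark matches on either strand to the response element, searched as GAAA, any 2 bases and GAAA.
Ifit3: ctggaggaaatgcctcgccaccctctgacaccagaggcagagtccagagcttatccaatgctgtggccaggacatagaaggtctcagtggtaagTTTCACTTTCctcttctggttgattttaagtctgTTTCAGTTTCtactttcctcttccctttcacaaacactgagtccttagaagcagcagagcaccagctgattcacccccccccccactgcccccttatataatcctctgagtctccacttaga
Igtp: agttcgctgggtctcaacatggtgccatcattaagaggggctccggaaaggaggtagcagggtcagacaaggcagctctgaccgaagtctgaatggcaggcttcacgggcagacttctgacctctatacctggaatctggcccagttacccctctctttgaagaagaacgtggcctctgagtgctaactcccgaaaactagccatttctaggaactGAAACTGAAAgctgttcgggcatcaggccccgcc
Gbp7: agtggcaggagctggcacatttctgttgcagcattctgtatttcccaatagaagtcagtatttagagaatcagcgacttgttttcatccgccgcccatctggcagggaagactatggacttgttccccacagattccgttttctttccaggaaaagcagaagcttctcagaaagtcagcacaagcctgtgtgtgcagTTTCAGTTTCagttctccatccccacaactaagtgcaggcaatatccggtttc
The element lay 156 to 147 and 122 to 113 bases before the start in Ifit3, on the minus strand, 34 to 25 bases before it in Igtp and 53 to 44 bases before it, on the minus strand, in Gbp7. Such a match was present for 3.46% of the 27025 genes with a promoter of this length in the table. A match is a description of the letters and not evidence of binding.

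Ifit3 had an interaction of 1.42 (SE 0.234, 95% interval 0.92 to 1.92, limma adjusted p = 0.772). It had log2 signals of 7.55, 6.83 and 6.85 in knockout high-fat livers, 5.79, 5.59 and 5.74 in knockout low-fat livers, 6.06, 6.08 and 6.27 in wild-type high-fat livers and 6.15, 6.24 and 6.16 in wild-type low-fat livers. The knockout high-fat livers were above all 9 others and the knockout low-fat livers below all 9 others, while the wild-type diets overlapped. Its signal rose 2.59-fold with the diet in knockout livers (log2 change 1.37, limma adjusted p = 0.00175), whereas the wild-type change was -0.05 (adjusted p = 0.974). With any 1 array left out the interaction lay between 1.18 and 1.54.

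Igtp, a GTPase of the immunity-related family that acts on pathogen vacuoles, had the smallest p of the interferon-gamma list, with an interaction of 1.06 (SE 0.257). Its log2 signals were 8.52, 8.79 and 8.17 in knockout high-fat livers, 7.13, 7.26 and 7.86 in knockout low-fat livers, 7.71, 7.86 and 7.98 in wild-type high-fat livers and 7.91, 7.70 and 7.89 in wild-type low-fat livers. The knockout high-fat livers lay above the other 9, and the other 3 groups overlapped. Igtp rose in knockout livers (log2 change 1.07, limma adjusted p = 0.0135), and the wild-type change was 0.01.

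Gbp7, a guanylate-binding protein, had log2 signals of 7.37, 7.11 and 6.72 in knockout high-fat livers, 6.13, 5.81 and 6.35 in knockout low-fat livers, 6.57, 6.32 and 6.80 in wild-type high-fat livers and 6.61, 6.42 and 6.77 in wild-type low-fat livers. The diets did not overlap in knockout livers and did in wild-type livers, and knockout high-fat overlapped wild-type high-fat livers. Its interaction was 1.01 on this probe set (SE 0.26) and 1.10 on the other (SE 0.374). Gbp7 rose in knockout livers (log2 change 0.97, limma adjusted p = 0.0244).

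The GTPase Tgtp1 had log2 signals of 7.36, 6.63 and 6.12 in knockout high-fat livers, 5.13, 5.14 and 6.09 in knockout low-fat livers, 5.17, 4.93 and 5.07 in wild-type high-fat livers and 5.57, 4.93 and 5.66 in wild-type low-fat livers. The knockout high-fat livers were the highest, the lowest of them just above the third knockout low-fat liver, and the interaction was 1.57 (SE 0.426). Gbp3 had 1.35 (SE 0.403) and Gbp2, Irf1 and Irgm1 had 0.59, 0.61 and 0.45. Irf1 is a transcription factor of the interferon response. Jak1, Jak2 and Ifngr1, the kinases and a receptor chain through which interferon-gamma signals, had -0.08, -0.03 and -0.00, whereas the other receptor chain, Ifngr2, had 0.50 (95% interval above 0).

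Across the list of interferon-gamma induced GTPases and regulators, 18 of the 22 tested members (27 were listed) had a positive interaction, and the median was 0.30. Over all 17097 genes, each by its brightest probe set, 47.7% were positive and the median was -0.01. An unadjusted p under 0.05 was found for 10 members with a positive value, where 2.49% of all genes had one, and for 0 with a negative value, where 3.02% had one. None of the 22 passed the adjusted threshold for the interaction. The knockout minus wild-type difference was above 0 in 19 of 22 members on the high-fat diet (median 0.28) and below 0 in 11 of 22 on the low-fat diet (median -0.02). Of the members 4 were called for the diet effect in knockout livers and 0 in wild-type livers, where 171 (1.00%) and 19 (0.111%) of all 17097 genes were. Over all genes the genotype difference was above 0 in 9026 on the high-fat diet and below 0 in 7532 on the low-fat diet. With 1 array left out the median lay between 0.27 and 0.40 and the count of 10 between 4 and 10. It was 4 without the second knockout high-fat, 5 without the first knockout low-fat, and 6 without the second knockout low-fat or the first wild-type high-fat extract. Without the 2 extracts with the lowest macrophage markers, 17 were positive, 7 had an unadjusted p under 0.05 and the median was 0.29. Without the first knockout high-fat extract, 18 were positive, 9 had an unadjusted p under 0.05 and the median was 0.32.

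**Figure D2:**
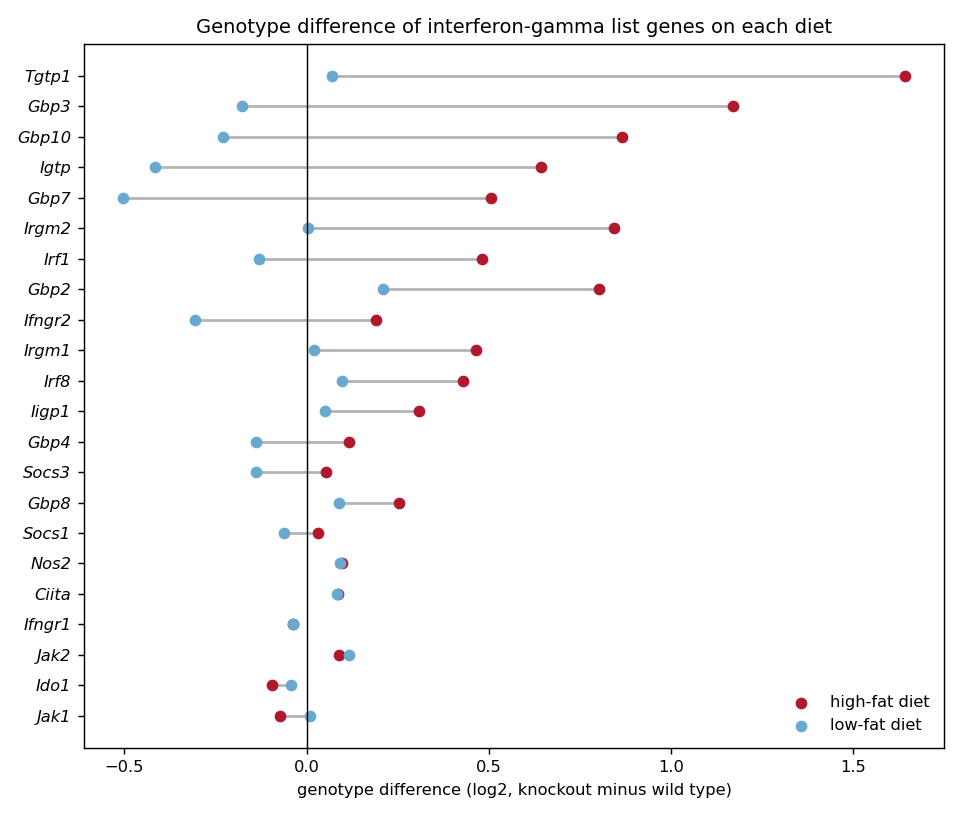
Knockout minus wild-type difference (x axis, log2) on the high-fat diet (red) and the low-fat diet (blue) for the 22 tested genes of the interferon-gamma list (rows, ordered by interaction, the length of the line between the points). The red points run from -0.09 to 1.64 and the blue points from -0.50 to 0.21.

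Among type I interferon antiviral genes, 26 of 31 tested members (37 listed) had a positive interaction, with a median of 0.17, and 5 had an unadjusted p under 0.05, all positive. Besides Ifit3 these were Ifit1, a further IFIT protein, with 1.30 (SE 0.456), Xaf1 with 0.90 (its other, dimmer probe set had -0.36), Rsad2, an antiviral enzyme of lipid droplets and endoplasmic reticulum, with 0.86, and Ifih1, a sensor of viral RNA, with 0.55. Ifit1 had log2 signals of 6.17, 5.995 and 6.07 in knockout high-fat livers, 4.75, 4.13 and 5.07 in knockout low-fat livers, 4.17, 4.70 and 5.61 in wild-type high-fat livers and 4.17, 4.81 and 5.13 in wild-type low-fat livers. The 3 knockout high-fat livers were above the other 9, and the wild-type livers spread over more than 1 log2 unit. Other members of the same family of genes were near 0: Mx1 had 0.08, Oas2 0.13, Ifit2 0.13 and Oas1g -0.20. With 1 array left out the count of 5 was 2 without the first knockout high-fat, the second knockout low-fat or the first wild-type high-fat extract, 8 without the third knockout high-fat and 10 without the third knockout low-fat extract. The median stayed between 0.14 and 0.28. Over all genes, 2.49% had an unadjusted p under 0.05 with a positive value and 3.02% with a negative one. The same shares are the background for the counts of the lists below.

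The interferon-stimulated response element was present in the promoters of 8 of 15 GTPase-list genes in the table (53.3%), 7 of 21 type I genes (33.3%) and 1 of 12 genes of the MHC class I list (8.33%). The element TTCNNNGAA, bound by STAT proteins and the same on both strands, was present in 7 of 15 GTPase-list genes. Of all genes with a promoter in the table, 8.13% had it. In the 15 genes of both interferon lists with the response element, 14 interactions were positive, with a median of 0.84. In the 21 without it, 14 were positive, with a median of 0.15. This split was not tested.

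MHC class I genes and immunoproteasome subunits, which make and present peptides to T cells and are induced by interferon-gamma, were positive in 12 of 13 tested members, with a median of 0.29. An unadjusted p under 0.05 was found for 4: H2-Q4 (0.84), and the immunoproteasome subunits Psmb8 (0.60), Psmb9 (0.58) and Psmb10 (0.40). Other probe sets of Psmb8 and Psmb9 gave values down to -0.19 and -0.42, and H2-Q4 was dim, with a mean log2 signal among the lowest 40% of probe sets (under 3.82). H2-K1 and H2-D1, the classical class I chains, had 0.09 and 0.29, and MHC class I genes are alike enough in sequence that their probe sets may share signal. With 1 array left out the count of 4 ran from 1, without the first knockout high-fat extract, to 9, without the third knockout low-fat extract. The median was 0.10 without the second knockout low-fat extract and 0.53 without the third. Without the 2 extracts with the lowest macrophage markers, 12 were positive, 3 had an unadjusted p under 0.05 and the median was 0.16.

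Chemokines and cytokines had 17 of 24 positive members and a median of 0.21, though 12 of the 24 were dim. Cxcl9, a chemokine induced by interferon-gamma that binds CXCR3 on T cells, had log2 signals of 9.19, 7.98 and 6.85 in knockout high-fat livers, 6.45, 5.31 and 6.77 in knockout low-fat livers, 6.003, 5.34 and 5.60 in wild-type high-fat livers and 6.60, 5.95 and 6.17 in wild-type low-fat livers. All 3 knockout high-fat livers were above the other 9, and they differed from each other by more than 2 log2 units. Its interaction was 2.43 (SE 0.652, 95% interval 1.03 to 3.82). Cxcl10, a second ligand of CXCR3, had 1.13 (SE 0.25). It was dim, with a highest value of 3.72 outside the knockout high-fat livers, in which it had 5.06, 4.80 and 4.27. Cxcl10 rose in knockout livers (log2 change 1.23, limma adjusted p = 0.00484), and the wild-type change was 0.11. Cxcl1, a neutrophil attractant, had 1.07, and Cxcl11, the remaining ligand of CXCR3, 0.74 on the brighter of its probe sets and 0.01 on the other. An unadjusted p under 0.05 was found for 4 members, all positive. That count was 2 without the third wild-type high-fat or the second wild-type low-fat extract and 7 without the third knockout low-fat or the first wild-type high-fat extract.

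Acute phase proteins, which the liver secretes in inflammation, had 18 of 22 positive members and a median of 0.08, with 5 at an unadjusted p under 0.05. That count was 2 without the second knockout low-fat, the second wild-type high-fat or the first wild-type low-fat extract, 3 without the first high-fat extract of either genotype or without the 2 extracts with the lowest macrophage markers, and 8 without the second wild-type low-fat extract. Lcn2, a protein that withholds iron from bacteria, had log2 signals of 8.74, 8.16 and 6.94 in knockout high-fat livers, 5.39, 4.98 and 4.84 in knockout low-fat livers, 6.22, 6.10 and 6.18 in wild-type high-fat livers and 5.08, 4.71 and 6.24 in wild-type low-fat livers. The knockout high-fat livers were above all others. Lcn2 rose 7.35-fold with the diet in knockout livers (log2 change 2.88, limma adjusted p = 0.00333). The wild-type change was 0.83 (adjusted p = 0.687) and the interaction 2.05 (SE 0.557). The serum amyloids Saa1 and Saa3 had interactions of 1.04 (SE 0.431) and 1.16 (SE 0.499).

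Signs of other cells moved with some of these values. Among the 3 knockout high-fat livers, Cxcl9, Gbp3, Tgtp1, Lcn2 and Saa3 were each highest in the first extract and lowest in the third, the order of the macrophage marker means of 7.10, 6.68 and 5.72. Gbp7 and Cxcl10 had this order too, whereas Igtp was highest in the second extract, and Ifit3 and Ifit1 were lowest in it. The means of the type I, interferon-gamma, MHC class I, chemokine and acute phase lists all had the macrophage order. They were 5.97, 5.85 and 5.70 for type I genes and 6.03, 6.01 and 5.72 for the interferon-gamma list. In knockout low-fat livers each of these lists was lowest in the second extract, as the macrophage markers were. Only the type I list was highest in the first extract there, as those markers were. Over the groups, macrophage markers were positive for the interaction in 11 of 15 members, and 0 had an unadjusted p under 0.05. Their median of 0.16 turned to -0.41 without the second knockout low-fat extract and to 0.56 without the first. Without the 2 extracts with the lowest macrophage markers it was 0.04, with 8 of 15 positive. Neutrophil markers averaged 4.63 to 4.77 in knockout high-fat, 4.23 to 4.36 in knockout low-fat, 4.33 to 4.41 in wild-type high-fat and 4.17 to 4.27 in wild-type low-fat livers. Lcn2 is 1 of the 10 tested members and weighs heavily in these means. The median diet effect of the list in knockout livers was 0.17, against 2.88 for Lcn2. Its median interaction was 0.09, with 8 of 10 positive and only Lcn2 at an unadjusted p under 0.05. T and NK cell markers, 11 of 15 of them dim, averaged 3.74 to 3.92 in knockout high-fat and 3.69 to 3.83 in the other livers. The part of these cells in the results was not tested, and in bulk liver more cells of a type and more RNA per cell cannot be told apart. Without the 2 extracts with the lowest macrophage markers, 28 of 31 type I genes were positive with a median of 0.21. Without the first knockout high-fat extract 24 were positive with a median of 0.17.

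The second smallest p of all belonged to Srpk1, a kinase that phosphorylates the SR proteins of RNA splicing, with an interaction of -0.94 (SE 0.168, 95% interval -1.30 to -0.57, limma adjusted p = 0.873). Its log2 signals were 6.29, 6.19 and 6.45 in knockout high-fat livers, 7.33, 7.05 and 7.02 in knockout low-fat livers, 6.80, 6.76 and 6.91 in wild-type high-fat livers and 6.65, 6.66 and 6.82 in wild-type low-fat livers. The knockout high-fat livers were below all others and the knockout low-fat livers above all others, the reverse of Ifit3. Srpk1 fell in knockout livers (log2 change -0.82, limma adjusted p = 0.00496), and the wild-type change was 0.11. The second probe set had -0.30 (95% interval -0.66 to 0.06), so the probe sets differ in size. Among 21 SR kinases and splicing regulators, 14 were positive and 7 negative, with a median of 0.03, and Srpk1 was the single member with an unadjusted p under 0.05.

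Mterf2, of the family of mitochondrial transcription termination factors, had an interaction of 1.06 (SE 0.209, 95% interval 0.61 to 1.504, limma adjusted p = 0.873). Its log2 signals were 6.13, 6.36 and 6.07 in knockout high-fat livers, 4.69, 4.65 and 4.81 in knockout low-fat livers, 6.05, 5.73 and 5.88 in wild-type high-fat livers and 5.32, 5.78 and 5.32 in wild-type low-fat livers. Knockout low-fat livers were below all others, and the high-fat livers of both genotypes lay within 0.7 of each other. Mterf2 rose 2.76-fold in knockout livers (log2 change 1.47, limma adjusted p = 0.000654), and the wild-type change was 0.41 (adjusted p = 0.545). Of 18 genes of mitochondrial transcription and mtDNA maintenance, 13 were positive, with a median of 0.17. The median was 0.07 without the second knockout low-fat extract, 0.11 without the second wild-type low-fat extract and 0.05 without the 2 extracts with the lowest macrophage markers. Besides Mterf2, Nrf1, a transcription factor of mitochondrial genes, had an unadjusted p under 0.05 (0.61), although its 4 probe sets ranged from -0.23 to 0.61. Subunits of oxidative phosphorylation were close to 0, with 9 of 27 positive and a median of -0.03.

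**Figure D3:**
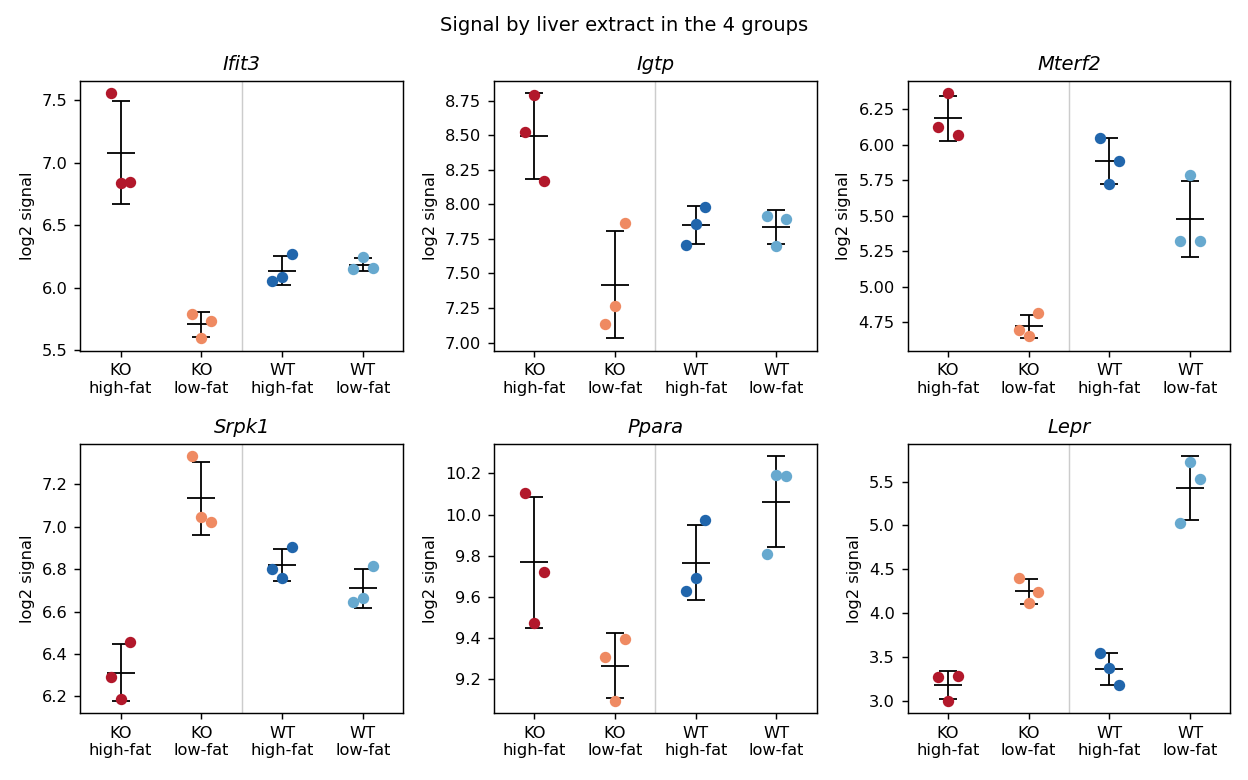
Log2 signal (y axis) of Ifit3, Igtp, Mterf2, Srpk1, Ppara and Lepr in each of the 12 liver extracts by group (x axis), with mean and SD of 3 extracts as black bars. In knockout high-fat livers Ifit3 lies at 6.83 to 7.55 and in knockout low-fat livers at 5.59 to 5.79, with all wild-type livers between, while Lepr is highest in wild-type low-fat livers at 5.02 to 5.73.

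Ppara had 3 probe sets, with positive interactions of 0.36 (SE 0.137), 0.32 (SE 0.138) and 0.80 (SE 0.216, limma adjusted p = 0.873). The brightest had log2 signals of 10.61, 10.52 and 10.68 in knockout high-fat livers, 10.10, 10.54 and 10.27 in knockout low-fat livers, 10.65, 10.78 and 10.69 in wild-type high-fat livers and 10.70, 10.75 and 10.87 in wild-type low-fat livers. The probe set with the interaction of 0.80 had 10.11, 9.48 and 9.72 in knockout high-fat livers, 9.31, 9.09 and 9.40 in knockout low-fat livers, 9.63, 9.69 and 9.97 in wild-type high-fat livers and 9.81, 10.19 and 10.19 in wild-type low-fat livers. On both, knockout low-fat livers were below all wild-type livers. The knockout minus wild-type difference was -0.11, -0.13 and 0.00 on the high-fat diet and -0.47, -0.45 and -0.80 on the low-fat diet. None of the low-fat differences passed (limma adjusted p of 0.243, 0.331 and 0.229). The list of PPAR receptors, their RXR partners and coregulators had 5 positive and 10 negative members and a median of -0.06, and Ppara was the single one with an unadjusted p under 0.05.

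Genes switched on by PPAR-alpha were positive for the interaction in 23 of 28 tested members (34 listed), with a median of 0.18, and 1 had an unadjusted p under 0.05. On the low-fat diet 27 of the 28 were lower in knockout than in wild-type livers, with a median difference of -0.24, while on the high-fat diet 13 were higher and the median was -0.01. The list mean was 8.76, 8.99 and 8.88 in knockout low-fat livers and 8.90, 9.18 and 9.56 in wild-type low-fat livers. These 2 groups overlapped, and the members share the same arrays, so they are not independent. The diet effect was above 0 in 26 members in knockout livers (median 0.44) and in 25 in wild-type livers (median 0.23), called for 5 and 1. Over all 17097 genes, 7532 were lower in knockout livers on the low-fat diet, and the diet effect was above 0 in 8318 in knockout and 9024 in wild-type livers. The called shares of all genes are given above with the interferon-gamma list. Cyp4a10, a fatty acid omega-hydroxylase, rose in knockout livers (log2 change 2.52, limma adjusted p = 0.0362) and had 1.73 in wild-type livers (adjusted p = 0.412). Its interaction of 0.79 had an SE of 0.73, and was 0.08 without the first knockout low-fat extract, 0.19 without the third wild-type low-fat extract and 1.31 without the third knockout low-fat extract.

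The member with the unadjusted p was Acot3, a peroxisomal acyl-CoA thioesterase, with an interaction of 2.17 (SE 0.694, 95% interval 0.68 to 3.66). Its log2 signals were 6.33, 7.51 and 6.48 in knockout high-fat livers, 5.85, 6.01 and 5.50 in knockout low-fat livers, 7.23, 5.46 and 5.52 in wild-type high-fat livers and 6.24, 7.30 and 8.22 in wild-type low-fat livers. The wild-type livers of each diet spread over almost 2 log2 units. Acot1, its cytosolic relative, had 0.78 (SE 0.463), and probe sets of these near-identical genes may share signal. Cpt1a, the entry enzyme of mitochondrial fatty acid oxidation, had 0.28 (95% interval -0.02 to 0.57), and Acadm, an acyl-CoA dehydrogenase, 0.13. With 1 array left out the list's median lay between 0.14 and 0.31, and the count of 1 was 6 without the first knockout high-fat or the first wild-type low-fat extract and 5 without the second knockout low-fat extract.

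Peroxisomal fatty acid oxidation was positive in 14 of 18 members (median 0.12), with Acot3 and Decr2 (0.34), a reductase of unsaturated fatty acids, at an unadjusted p under 0.05. Mitochondrial fatty acid oxidation was positive in 12 of 17 members (median 0.05). Its single member with an unadjusted p was Acadvl, the dehydrogenase of very long chains, at -0.20. Cholesterol synthesis and uptake was positive in 15 of 17 members (median 0.23), none with an unadjusted p under 0.05. Without the 2 extracts with the lowest macrophage markers 10 of these 17 were positive and the median was 0.03, and with 1 array left out the median ran from 0.08, without the first wild-type low-fat extract, to 0.33.

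Fatty acid and triglyceride synthesis gave 10 positive and 11 negative members and a median of -0.01. Scd1, which makes monounsaturated fatty acids, fell by 2.31 in knockout and by 2.73 in wild-type livers (log2, limma adjusted p of 3.54e-05 and 3.84e-06), with an interaction of 0.42 (95% interval -0.09 to 0.92). Elovl6, an elongase, fell by 1.65 and by 2.10 and had an interaction of 0.44 (95% interval -0.15 to 1.04). Fasn, the fatty acid synthase, fell by 1.93 in knockout and by 1.80 in wild-type livers, and its interaction was -0.13 (95% interval -0.90 to 0.64). Mogat1, an enzyme of triglyceride synthesis, had 0.84 (SE 0.306). Lpin1, a phosphatidate phosphatase, had -1.78 with an SE of 0.868 on its brightest probe set and -1.98 with an SE of 0.88 on the other. With 1 array left out the brightest ran from -2.47 to -1.03.

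The 25 probe sets called for diet in wild-type livers all had the same sign in knockout livers, with r of 0.964 across probe sets, which are not independent, and median sizes of 1.43 in knockout and 1.26 in wild-type livers. Of the 25, 12 were larger in knockout livers and 3 had an unadjusted interaction p under 0.05, among them both Lepr probe sets. Of the 228 called in knockout livers, 210 had the same sign in wild-type livers and the median sizes were 0.745 in knockout and 0.294 in wild-type livers. These 228 were chosen on the knockout arrays, so their larger size there and the 120 with an unadjusted interaction p under 0.05 are not independent of the choice. Over all 28898 probe sets the correlation of the diet effects was 0.349 and 56.0% had the same sign. The genotype differences on the 2 diets, which also share no array, correlated with r of 0.0438 and had the same sign in 51.1%.

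**Figure D4:**
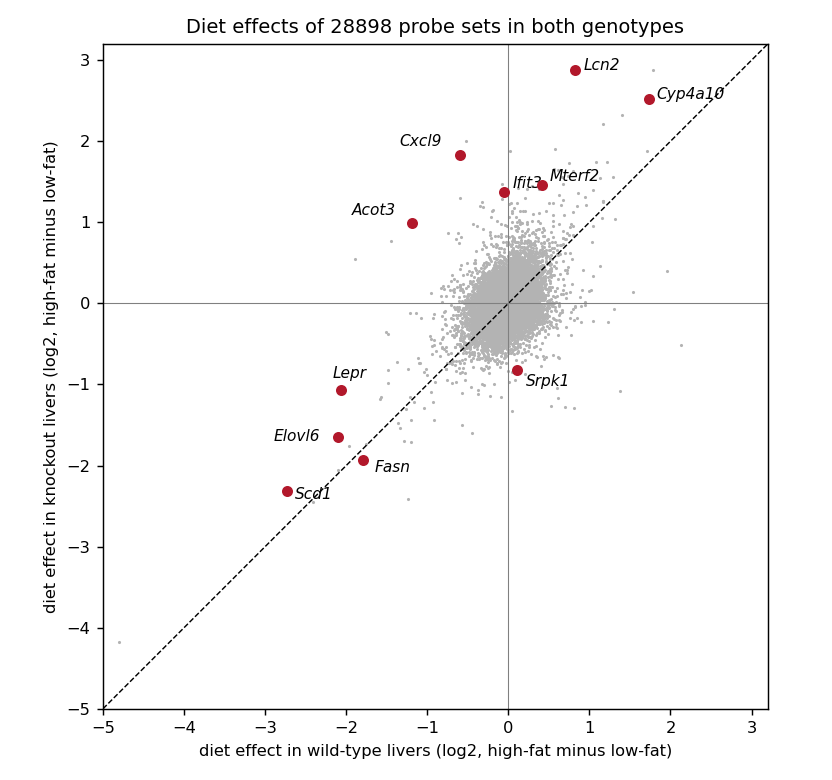
Diet effect in knockout livers (y axis) against diet effect in wild-type livers (x axis), log2 high-fat minus low-fat, for 28898 probe sets, with equal effects on the dashed line and the vertical distance from it equal to the interaction. Scd1, Elovl6 and Fasn lie near the line, while Cxcl9, Lcn2, Acot3 and Lepr lie above it and Srpk1 below it.

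Lepr, the leptin receptor, had the largest interactions among the 25 probe sets called for diet in wild-type livers. The brighter of its 2 probe sets among them had 3.27, 2.995 and 3.28 in knockout high-fat livers, 4.40, 4.12 and 4.24 in knockout low-fat livers, 3.54, 3.38 and 3.17 in wild-type high-fat livers and 5.02, 5.73 and 5.53 in wild-type low-fat livers. The low-fat groups did not overlap, and the high-fat groups did. It fell by 1.07 in knockout livers (limma adjusted p = 0.00806) and by 2.06 in wild-type livers (adjusted p = 8.24e-05), with an interaction of 1.00 (SE 0.237). Every high-fat value of this probe set, in both genotypes, lay under the dim cutoff of 3.82. The size of either fall may therefore be bounded by background, which was not tested. A second probe set, itself dim with a mean of 3.68, had 1.16 (SE 0.272), and the other 2 of the 4 Lepr probe sets had 0.29 and 0.11.

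Among the other positive interactions with the smallest p, Akr1d1 and Ddo were lowest in knockout low-fat livers. Akr1d1, the 5-beta-reductase of bile acid and steroid metabolism, had 9.59, 9.59 and 9.55 in knockout high-fat livers, 8.83, 8.91 and 9.06 in knockout low-fat livers, 9.47, 9.49 and 9.40 in wild-type high-fat livers and 9.41, 9.27 and 9.42 in wild-type low-fat livers. Knockout low-fat livers were below all others, Akr1d1 rose in knockout livers (log2 change 0.64, limma adjusted p = 0.00257), and its probe sets had interactions of 0.55 and 0.49. Ddo, the peroxisomal D-aspartate oxidase, was 6.13 to 6.20 in knockout low-fat livers and 6.69 to 6.91 in all others, with interactions of 0.61 and 0.69. Pla2g15, a lysosomal phospholipase, had 1.08 (SE 0.214) and 0.74 (SE 0.171). Gna14, a G protein alpha subunit, had 0.87, 0.86 and 0.61 on its 3 probe sets. Slc16a5, of the monocarboxylate transporter family, had 1.45 (SE 0.311).

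Among negative interactions, Hnf4a, a nuclear receptor that maintains hepatocyte identity, had 10.96, 10.93 and 10.92 in knockout high-fat livers, 11.30, 11.44 and 11.22 in knockout low-fat livers, 11.002, 11.06 and 11.01 in wild-type high-fat livers and 10.85, 10.99 and 11.16 in wild-type low-fat livers. It was highest in knockout low-fat livers and fell with the diet there (log2 change -0.39, limma adjusted p = 0.0348). The interaction was -0.41 (SE 0.111), and its 4 probe sets ranged from -0.41 to -0.05. Nfat5, a transcription factor of osmotic stress, had -0.91 (SE 0.206), while its 4 other probe sets, all dim, ranged from -0.42 to 0.00. Zfp771, a zinc finger protein, had -0.61 (SE 0.13), with -0.45 and 0.11 on its other probe sets, and fell in knockout livers (log2 change -0.61, limma adjusted p = 0.00665). Elovl3, an elongase of very long chains, had -1.29 (SE 0.397). Of the 12 negative probe sets with the smallest p, 7 lay under the dim cutoff.

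Genes of PML and its nuclear body partners were negative in 13 of 18 members, with a median of -0.10. Hipk2, a kinase found in nuclear bodies, had -0.42 (SE 0.137), and 7 of its 8 probe sets were negative. Rb1, the retinoblastoma tumour suppressor, had -0.59 (SE 0.201) on its brightest probe set and 0.07 on the other. Genes of insulin, PI3K and FOXO signalling were negative in 14 of 17 members (median -0.09), with Akt1, a kinase of insulin signalling, at -0.41 and Igfbp2 at -0.44. Targets of p53 had 13 of 20 positive members (median 0.08) and none with an unadjusted p under 0.05. Sinusoidal endothelial markers were negative in 14 of 17 members (median -0.26). Their means were 6.59, 5.84 and 5.86 in knockout high-fat and 6.83, 5.97 and 6.45 in knockout low-fat livers, against 6.39 to 6.74 in wild-type livers. The median was -0.11 without the second knockout high-fat and -0.55 without the second knockout low-fat extract.

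**Figure D5:**
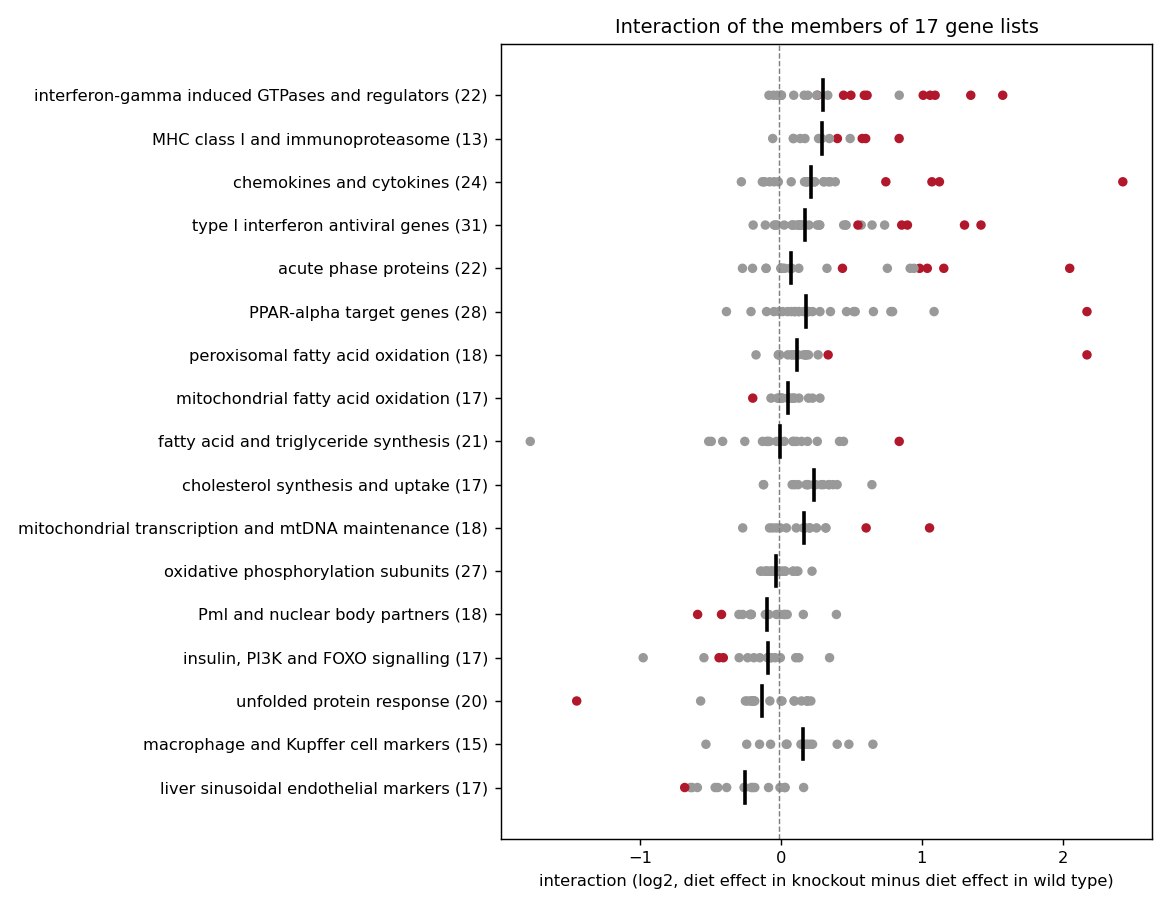
Interaction (x axis, log2) of each tested member of 17 gene lists (rows, number of members in brackets), with members at an unadjusted p under 0.05 in red, others in grey, the list median as a black bar and the median of all genes as a dashed line. List medians run from -0.26 for sinusoidal endothelial markers to 0.30 for the interferon-gamma list.

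The probe sets with an unadjusted p under 0.05 were chosen on the difference of the diet effects, a choice that itself favours opposite signs, so their signs are given as a description only. Of the 808 positive ones, 632 had opposite signs of the diet effect, 148 had the same sign and were larger in knockout livers, and 28 were larger in wild-type livers. Of the 817 negative ones the counts were 701, 98 and 18. The share with the same sign over all probe sets, 56.0%, is given above. The genotype difference was larger on the low-fat diet in 472 of the positive and 499 of the negative ones. Dim probe sets made up 246 of the positive and 404 of the negative ones, and 11559 of all 28898 probe sets. The 16139 probe sets without a single annotated gene, control probe sets aside, gave 0 calls and 5.91% at an unadjusted p under 0.05. They were fitted together with the 28898, 45037 in all. Their smallest limma adjusted p was 0.0838, under 0.10 but not under 0.05, against 0.772 among the single-gene probe sets.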

How the data were processed

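Liver RNA of 12 extracts was hybridised to 1 array each. The deposited values are log2 signals, made by the authors with RMA per the submitters' processing notes; no version is named in the sources used here. Because RMA usually gives all arrays 1 distribution, a shift common to all genes may be lost. Total RNA was extracted with Trizol and biotin-labelled, per the labels. Scan dates were not used here.

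Of 45141 probe sets, 104 controls, 551 with several genes and 15588 with none were left out; 28689 of 28898 gene identifiers were found in RefSeq's table, and 0 symbols changed. Group means of all 12 arrays were fitted with limma 3.58.1 in R 4.3.3 (8 residual degrees of freedom, variance trend) and adjusted by Benjamini-Hochberg, without a dim filter; dim means among the lowest 40% (under 3.82). SE and 95% intervals are limma's. The code was tested on simulated data. Lists use each gene's brightest probe set and got no set test.

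Named genes were the 12 smallest p on each side, Pml, Ifit3, Srpk1, Mterf2 and Ppara, up to 4 members a list with an unadjusted p under 0.05 plus its largest, a fixed set of liver genes, and the top diet effects. Members named outside this rule (such as Jak1, Mx1, H2-K1) were chosen after their values were seen. Members and lists were chosen with earlier results of these data known. Alternatives were normalization, dim filters, 1 probe set per gene, variance models, array weights, a block for the replicate number and each array left out; the fit without 2 arrays was chosen after seeing the data.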

Additional observations from a re-analysis of the deposited data

How the results depend on the processing

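The count of probe sets past an adjusted p of 0.05 was 0 under each setting run except without the third knockout low-fat extract, where it was 1, so the range with 1 array left out was 0 to 1. That probe set belongs to AW112010, named after its value was seen, with an interaction of 1.02 (limma adjusted p = 0.0368) there and 0.79 (adjusted p = 0.873) with all arrays. The count at an unadjusted p under 0.05, 1625, was 955 and 638 without the 40% and 60% dimmest probe sets, 971 with 1 probe set per gene and 585 with both, where fewer were tested (5.51% to 5.70%). With 1 array left out it ran from 1125, without the second wild-type high-fat extract, to 2483, without the third knockout low-fat extract; the cause was not tested. It was 1293 without the 2 extracts with the lowest macrophage markers and 2120 with array weights. With the replicate number as a block it was 1814, with 0 calls. The labels do not say whether the numbers pair the samples, and the correlations do not settle it. Same-numbered extracts correlated at -0.109 to 0.323, over 0.1 in 7 of 18 pairs. Of the 12 arrays, 8 correlated best with their own number. Of 109 named probe sets, none passed under any of 23 settings (smallest adjusted p 0.119, Lepr), and 7, all with values near 0, changed sign. Under array weights these were Ccng1 (-0.014), Clec4f (-0.25) and Stab2 (-0.13), and without those 2 extracts Ccng1 (-0.0031) and Clec4f (-0.0043). With 1 array left out Ccng1 ran from -0.035 to 0.089, Cdkn1a from -0.74 to 0.36, Clec4f from -0.45 to 0.75, Fasn from -0.37 to 0.17, Fgf21 from -0.30 to 0.65, Pck1 from -0.28 to 0.024 and Stab2 from -0.085 to 0.20. Dim probe sets have little signal over background, and their changes tend to be compressed.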

Other observations

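The largest interactions by size lay mostly outside the naming rule and were chosen after their values were seen. Xlr4b, an X-linked gene of the Xlr family, had -2.65 with an SE of 1.20, and Gadd45g, a stress-response gene, had -2.45 with an SE of 1.11. Each had a widely spread group. Xlr4b measured 3.79, 8.07 and 5.14 in wild-type high-fat livers and 2.87 to 5.58 in the others. Gadd45g measured 7.91, 5.39 and 9.33 in wild-type low-fat livers and 6.54 to 9.52 in the others. Bcl6, a transcriptional repressor that is sex-biased in mouse liver, had 2.44 and 2.21 on its probe sets, with SE of 1.03 and 0.734. Cyp2c39 and Cyp2c38, cytochromes of fatty acid and drug oxidation, had 2.53 and 1.85, and probe sets of this multigene family may share signal. G0s2, an inhibitor of the lipase that empties lipid droplets, had 1.62 (SE 0.584). It measured 8.39, 9.91 and 9.87 in knockout high-fat livers, 8.32, 8.61 and 8.63 in knockout low-fat livers, 9.24, 8.45 and 9.30 in wild-type high-fat livers and 8.80, 10.52 and 9.91 in wild-type low-fat livers. Every knockout low-fat liver lay below every wild-type low-fat liver, and the other pairs of groups overlapped. None of these probe sets passed after adjustment (limma adjusted p = 0.873 for each).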
